A study of Arabidopsis thaliana with 12 samples.

Results

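Aquaporins are membrane channels for water and for small uncharged solutes, and their transcripts were followed here in Arabidopsis roots with and without aluminium (Al). The members were taken from a fixed list of 34 loci with plasma membrane intrinsic protein (PIP), tonoplast intrinsic protein (TIP), NOD26-like intrinsic protein (NIP) or small basic intrinsic protein (SIP) names. The list goes by name and not by a measured value, but it was chosen with earlier results of these data known. Of the 34 loci, 32 were among the 25872 genes of the expression table. The values are FPKM (fragments per kilobase of transcript and library size), which correct for gene length and sequencing depth, and a gene was tested when it reached 0.5 FPKM in at least 3 of the 12 libraries. This left 20773 genes, 29 of them aquaporins: 13 PIPs, 7 TIPs, 6 NIPs and 3 SIPs.

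The study asked how GmNTL4, a soybean NAC transcription factor that is anchored in a membrane before its release, alters gene expression under Al toxicity. Roots of wild type (WT) Arabidopsis and of plants overexpressing *GmNTL4* from the 35S promoter (OX) were sequenced from control and Al-treated seedlings, with 3 libraries in each of the 4 groups. The methods give a modified 1/5 Hoagland solution at pH 4.5 that lacked H2PO4- and held CaCl2, with 5 µM AlCl3 for the Al treatment, and the treatment lasted 48 h by the methods and the series design but 24 h by the sample labels. The 35S promoter is active in most tissues rather than in roots alone, more than 1 overexpression line was raised, which line was sequenced is not stated, and the soybean transgene itself was not analysed here. Plant age is not given in the sources used here.

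PIPs sit mainly in the plasma membrane and TIPs in the vacuolar membrane, and together they set much of the water permeability of root cells. NIPs carry metalloids such as boric acid and arsenous acid, and one of them takes up Al bound to malate from the root cell wall. SIPs reside in the endoplasmic reticulum. Acid soils bring Al into solution as a toxic ion that stops root elongation, and Arabidopsis roots answer by releasing malate through the ALMT1 channel and citrate through the MATE transporter.

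The 12 libraries held between 16162941 and 17136217 fragments on genes, so depth differed little. The 10 root markers examined were detected in every library, among them *CASP1* of the endodermis at 26.6 to 86.8 FPKM and *PHO1* of the stele at 95.8 to 188 FPKM. Replicate 1 of both control groups stood apart: *ALMT1* was at 15.6 FPKM in WT control replicate 1 and 30.02 FPKM in OX control replicate 1, against 94.98 to 165 FPKM in the other controls, and *MATE* was at 4.30 and 8.12 FPKM against 51.5 to 79.9 FPKM. The summed level of 10 green-tissue markers was 307 FPKM in WT control replicate 1, 559 and 353 FPKM in WT Al replicates 2 and 3, and 29.2 to 94.1 FPKM in the other 9 libraries, with *RBCS1A* at 77.5, 144 and 104 FPKM in the first 3. The 5 seed markers summed to at most 3.67 FPKM and the 3 pollen markers to at most 4.35 FPKM. For several genes and counts, results are therefore also given without the control replicates 1, and the part of green tissue in any result was not tested.

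Members are introduced by their current name and locus, except for 4 given by an older name, and afterwards by an older name that RefSeq lists for the locus as its symbol or a synonym, or by the locus where there is none. NIP1;2 (AT4G18910, older name NLM2) is the Al-malate carrier and lies at chr4:10366044-10368510 on the plus strand of TAIR10.1, with 5 exons and a coding length of 885 bp. Its closest relative NIP1;1 (AT4G19030, NLM1), an entry route for arsenite into roots, lies 53 kb away at chr4:10421521-10423508 on the minus strand, with 15 genes between them, and shares 85.03% of aligned coding bases. NIP3;1 (AT1G31885), also tied to arsenite uptake, lies at chr1:11450315-11452068 on the plus strand. The 150 bases that precede the annotated start of each of these genes are shown because the results turn on them, at chr4:10365894-10366043, chr4:10423509-10423658 and chr1:11450165-11450314 in that order, from the RefSeq assembly TAIR10.1. Capitals mark CATGT, the motif that NAC factors are known to bind.
NLM2: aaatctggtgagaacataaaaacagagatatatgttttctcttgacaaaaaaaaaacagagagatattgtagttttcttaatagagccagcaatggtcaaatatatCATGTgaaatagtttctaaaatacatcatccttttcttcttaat
NLM1: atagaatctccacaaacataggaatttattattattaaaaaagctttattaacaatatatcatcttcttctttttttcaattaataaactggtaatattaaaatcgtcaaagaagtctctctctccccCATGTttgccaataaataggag
AT1G31885: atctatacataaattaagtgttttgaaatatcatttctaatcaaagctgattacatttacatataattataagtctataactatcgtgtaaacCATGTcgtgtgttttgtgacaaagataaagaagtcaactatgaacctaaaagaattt

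CATGT was searched on both strands in the 300 bases before each annotated gene start, where ACATGT counts once on each strand. It was present in 21 of the 34 aquaporin windows, or 61.8%, and in 10362 of 25578 windows of all genes of the table found in TAIR10.1, or 40.5%. The window of NLM2 held 1 copy, that of AT1G31885 held 1 and that of NLM1 held 3, of which 2 lay outside the stretch shown. A match is a description of these letters and not a measured binding site.

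PIP2;2 (AT2G37170, PIP2B) and PIP2;3 (AT2G37180, RD28, first described as a desiccation-responsive gene) form the closest pair of the family. They are 2.61 kb apart on chromosome 2 with no gene between them and share 94.76% of coding bases. A stretch of 90 coding bases is shown for both because its differences let reads of the pair be told apart, and it was chosen as the one with the most of them, at chr2:15614179-15614268 on the minus strand for PIP2B and at chr2:15618302-15618391 on the plus strand for RD28, with the 12 differing bases in capitals.
PIP2B: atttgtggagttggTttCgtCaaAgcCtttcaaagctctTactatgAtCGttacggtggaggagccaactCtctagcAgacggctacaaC
RD28: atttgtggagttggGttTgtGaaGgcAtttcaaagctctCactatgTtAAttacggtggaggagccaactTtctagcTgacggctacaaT

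Of all windows of 150 bases, the read length, 7.78% of those in PIP2B and 8.68% of those in RD28 occurred unchanged in the partner gene, so a part of their fragments could be counted for either. NIP2;1 (AT2G34390) shared 67.2% of its windows with other loci, the gene AT2G29870 and an antisense RNA, and its values are uncertain for that reason. Among the 34 loci, 7 had exons that overlap a gene on the opposite strand, and the strand setting of the counting is not stated. None of these 7 was NLM1, NLM2 or AT1G31885, and 29 of the 34 members shared no window of read length with another gene.

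The aquaporins spanned more than 3 orders of magnitude in FPKM and included some of the most abundant root transcripts. The highest mean over the 12 libraries was that of NIP5;1 (AT4G10380), the boric acid channel of root surface cells, at 641.8 FPKM, which ranked 36 among all genes of the table. It was followed by TIP1;2 (AT3G26520, GAMMA-TIP2), a vacuolar water channel, at 631 FPKM. Next came PIP1;2 (AT2G45960, PIP1B), a plasma membrane channel for water and CO2, at 453 FPKM, and PIP2B, a main water channel of roots, at 452.5 FPKM. TIP1;1 (AT2G36830, GAMMA-TIP1), a vacuolar channel for water and hydrogen peroxide, followed at 439.5 FPKM, and PIP2;1 (AT3G53420, PIP2A), the water and hydrogen peroxide channel studied most in roots, at 341 FPKM. The ranges of these 6 genes over the libraries overlapped one another, so their order is that of the means alone.

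**Figure D1:**
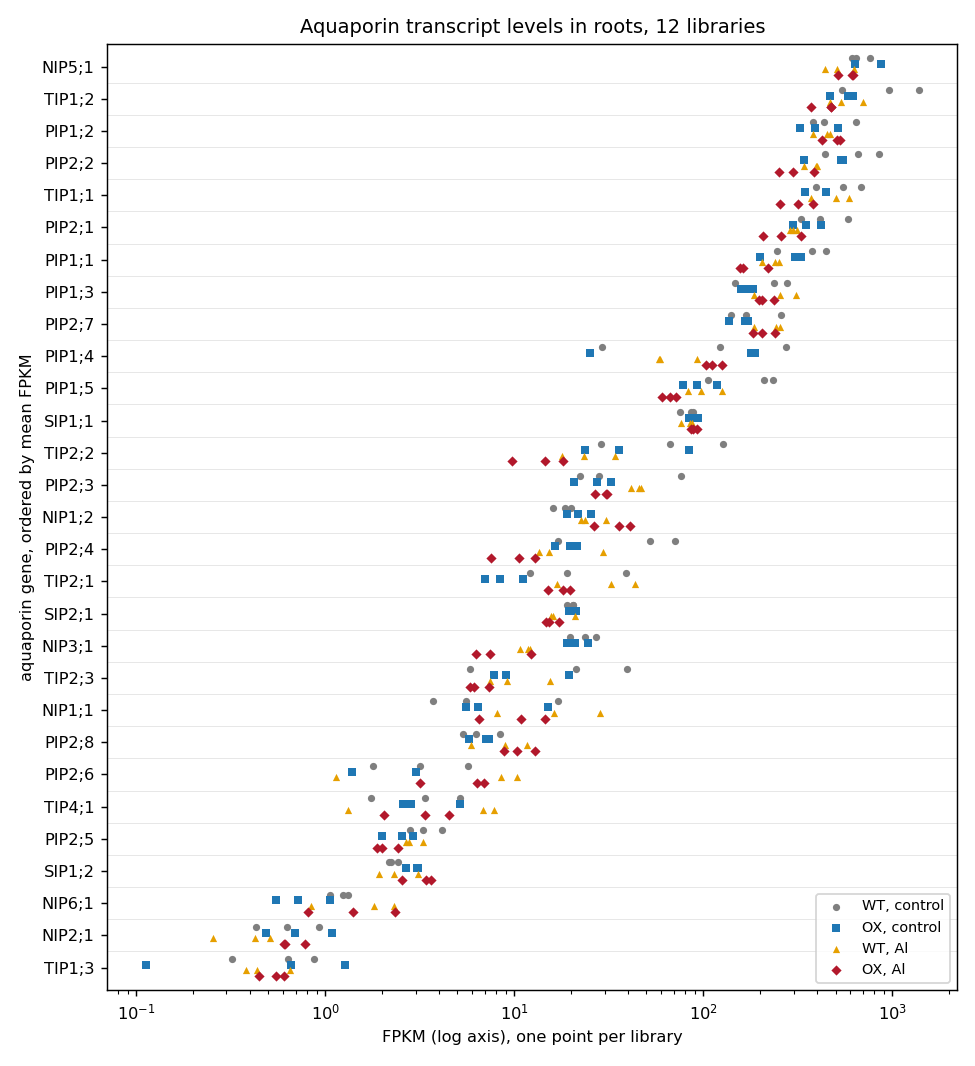
FPKM on a log axis for the 29 aquaporin genes tested, ordered by mean, with one point per library and the 4 groups in different symbols. AT4G10380 and GAMMA-TIP2 are at the top with means of 641.8 and 631 FPKM, AT2G34390 and GAMMA-TIP3 are at the bottom, and the points of PIP1E and DELTA-TIP2 are spread wide while those of SIP1A nearly coincide.

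Among the other PIPs, PIP1;1 (AT3G61430, PIP1A), PIP1;3 (AT1G01620, PIP1C) and PIP2;7 (AT4G35100, PIP3A) lay between 137 and 448 FPKM in every library. PIP1;4 (AT4G00430, PIP1E) and PIP1;5 (AT4G23400, PIP1D) had means of 114.0 and 112 FPKM, RD28 of 35.7 FPKM and PIP2;4 (AT5G60660, PIP2F) of 23.9 FPKM. PIP2D (AT3G54820), PIP2;6 (AT2G39010, PIP2E) and PIP2;8 (AT2G16850, PIP3B) stayed at or below 12.8 FPKM. PIPs made up 48.8 to 55.7% of the summed level of the family, TIPs 21.7 to 34.8%, NIPs 10.3 to 25.0% and SIPs at most 3.29%, depending on the library.

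Among the TIPs, TIP2;2 (AT4G17340, DELTA-TIP2), a root TIP, averaged 40.2 FPKM. TIP2;1 (AT3G16240, DELTA-TIP1) and TIP2;3 (AT5G47450, DELTA-TIP3), which carry ammonia as well as water, averaged 20.2 and 12.8 FPKM. TIP4;1 (AT2G25810) ranged from 1.32 to 7.76 FPKM and GAMMA-TIP3 (AT4G01470), known from pollen, from 0.112 to 1.27 FPKM, near the limit of the filter. Of the listed TIPs of seed and pollen, TIP3;2 (AT1G17810) had 0 to 8 fragments per library and TIP5;1 (AT3G47440) a single fragment in 1 library, so neither was tested. TIP3;1 (AT1G73190) and NIP4;1 (AT5G37810) were not among the genes of the expression table, so only their sequences were examined.

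Among the NIPs, NLM2 averaged 25.0 FPKM, AT1G31885 16.3 FPKM and NLM1 11.5 FPKM. The remaining ones were scarce, with NIP6;1 (AT1G80760), which distributes boric acid in shoots, at 0.548 to 2.34 FPKM and AT2G34390, a lactic acid channel induced by low oxygen, at 0.255 to 1.08 FPKM. NIP7;1 (AT3G06100), a boric acid channel of anthers, had 0 to 13 fragments per library and did not pass the filter. The SIPs were the steadiest group. SIP1A (AT3G04090) varied least of the 29 genes, from 75.0 to 94.2 FPKM with a coefficient of variation of 6.47%, SIP2;1 (AT3G56950) lay between 14.6 and 21.2 FPKM and SIP1B (AT5G18290) between 1.93 and 3.64 FPKM.

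Spread between libraries was far larger for several TIPs and PIPs. The coefficient of variation over the 12 libraries was 86.7% for DELTA-TIP2, 79.2% for PIP2F, 77.3% for DELTA-TIP3 and 70.1% for PIP2E, and the highest library exceeded the lowest 13.1-fold for DELTA-TIP2 and 10.9-fold for PIP1E. Summed over the 32 members, the family took 6522, 3736 and 5406 FPKM in the WT controls, 4073, 4639 and 3689 FPKM in the OX controls, 4043, 3486 and 4115 FPKM in WT with Al and 3764, 3372 and 3195 FPKM in OX with Al. The sum was highest in WT control replicate 1 and lowest in OX Al replicate 3, and each group's range overlapped that of every other group.

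**Figure D2:**
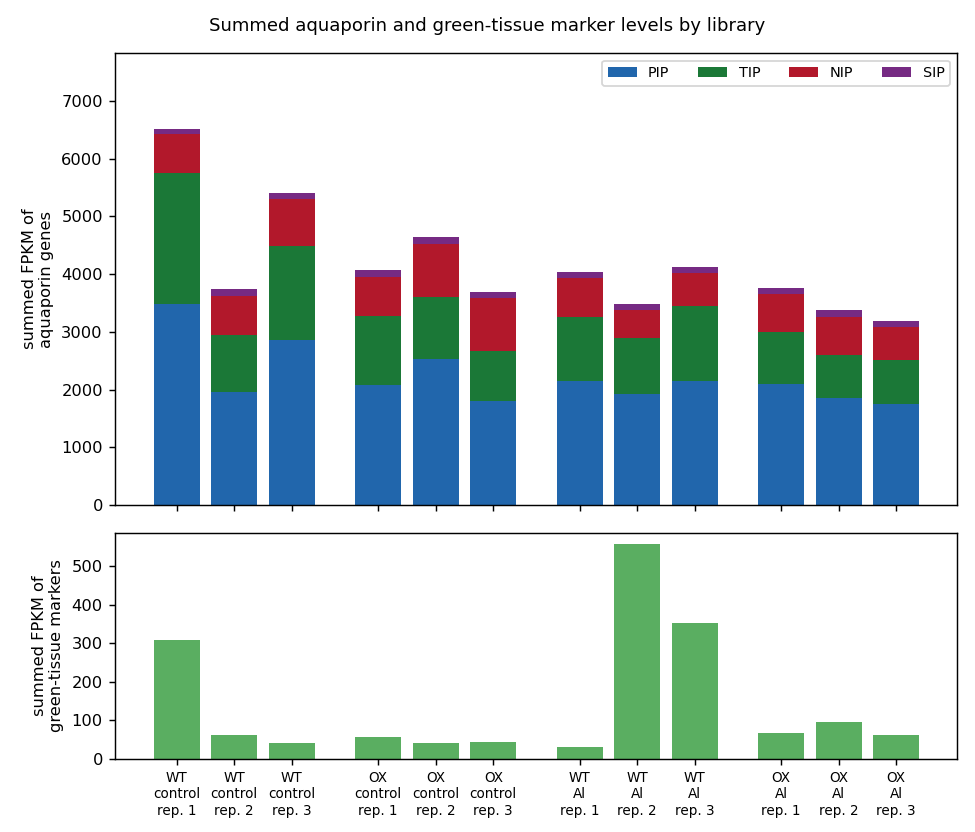
Summed FPKM of the aquaporin genes in each library, stacked by subfamily (upper panel), and of 10 green-tissue markers (lower panel), both from 0. The aquaporin sum runs from 3195 FPKM in OX Al replicate 3 to 6522 FPKM in WT control replicate 1, and the marker sum is high in WT control replicate 1 and in WT Al replicates 2 and 3.

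WT control replicate 1 was the highest library for 13 of the 29 tested members, 44.8%, against 12.2% of all genes tested. OX Al replicate 3 was the lowest library for 7 of 29, 24.1%, against 10.2% of all genes tested. These libraries were thus at the extreme for more aquaporins than their share over all genes, and values without them are given where they change a call.

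For the effect of Al, each genotype was compared on its own and both were averaged, so these comparisons and those of OX with WT share libraries. AT1G31885 fell in Al-treated roots and was the single aquaporin called in any comparison, a call meaning an adjusted p of at most 0.05 (limma, Benjamini-Hochberg over the 20773 genes) together with a change of at least 1 on the log2(FPKM + 0.5) scale. NLM2, the Al-malate carrier, was higher with Al in both genotypes and passed the adjusted p but not the size limit. Most of the abundant water channels, among them PIP2B, PIP2A, PIP1A and GAMMA-TIP2, were lower with Al in the mean of both genotypes without passing the adjusted p. SIP1A and PIP1B barely differed.

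AT1G31885 was at 27.1, 19.7 and 23.7 FPKM in the WT controls and at 10.8, 11.7 and 12.1 FPKM in WT with Al. In OX it was at 19.0, 20.8 and 24.4 FPKM without Al and at 12.3, 7.40 and 6.27 FPKM with Al. All 6 Al libraries lay below all 6 control libraries, with no overlap in either genotype. Behind these values were 149 to 663 fragments per library. In bulk roots, fewer cells that express a gene and less RNA per cell cannot be told apart, here and in every result that follows.

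The fitted change of AT1G31885 with Al was -1.15 on the log2 scale (SE 0.148, 95% confidence interval -1.47 to -0.82, adjusted p = 0.00243) in the mean of both genotypes. It was -1.31 in OX (SE 0.209, adjusted p = 0.0203) and -0.99 in WT (SE 0.209, adjusted p = 0.0741), where it was not called. The difference between the genotypes was -0.32 (SE 0.296, adjusted p = 0.957), which does not show a larger fall in OX than in WT. Without both control replicates 1 the mean change was -1.13 (adjusted p = 0.00966), and over the 22 alternative settings it stayed between -1.28 and -1.05 with adjusted p between 0.000136 and 0.0102. The call within OX was less firm: it was lost without OX control replicate 1, 2 or 3 (adjusted p = 0.0524, 0.0707 and 0.0685), without OX Al replicate 2 or 3 (adjusted p = 0.125 and 0.111), and when only the OX libraries were fitted (adjusted p = 0.0783).

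NLM2 was at 16.03, 19.9 and 18.5 FPKM in the WT controls and at 23.5, 30.4 and 22.5 FPKM in WT with Al. The OX libraries were at 18.9, 21.8 and 25.4 FPKM without Al and at 26.4, 36.0 and 40.9 FPKM with Al. Within each genotype all 3 Al libraries lay above all 3 controls, and OX with Al held the 2 highest libraries of the series. The 2 control replicates 1, which were low in *ALMT1* and *MATE*, were also the lowest of their groups for NLM2.

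The fitted change of NLM2 with Al was 0.55 (SE 0.125, 95% confidence interval 0.27 to 0.82, adjusted p = 0.0303) in the mean of both genotypes, 0.47 in WT (SE 0.176, adjusted p = 0.296) and 0.62 in OX (SE 0.176, adjusted p = 0.121). Without both control replicates 1 the mean change was 0.45 (adjusted p = 0.0946). Leaving out single libraries moved it between 0.48 and 0.63 with adjusted p between 0.00783 and 0.0907, and it was over 0.05 without WT control replicate 1 or 3 (0.0560 and 0.0581), OX control replicate 1 or 2 (0.0658 and 0.0630), WT Al replicate 1 or 2 (0.0538 and 0.0663), or OX Al replicate 2 or 3 (0.0907 and 0.0821). Without OX Al replicate 1 the change in OX was 0.80 with an adjusted p of 0.0299.

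**Figure D3:**
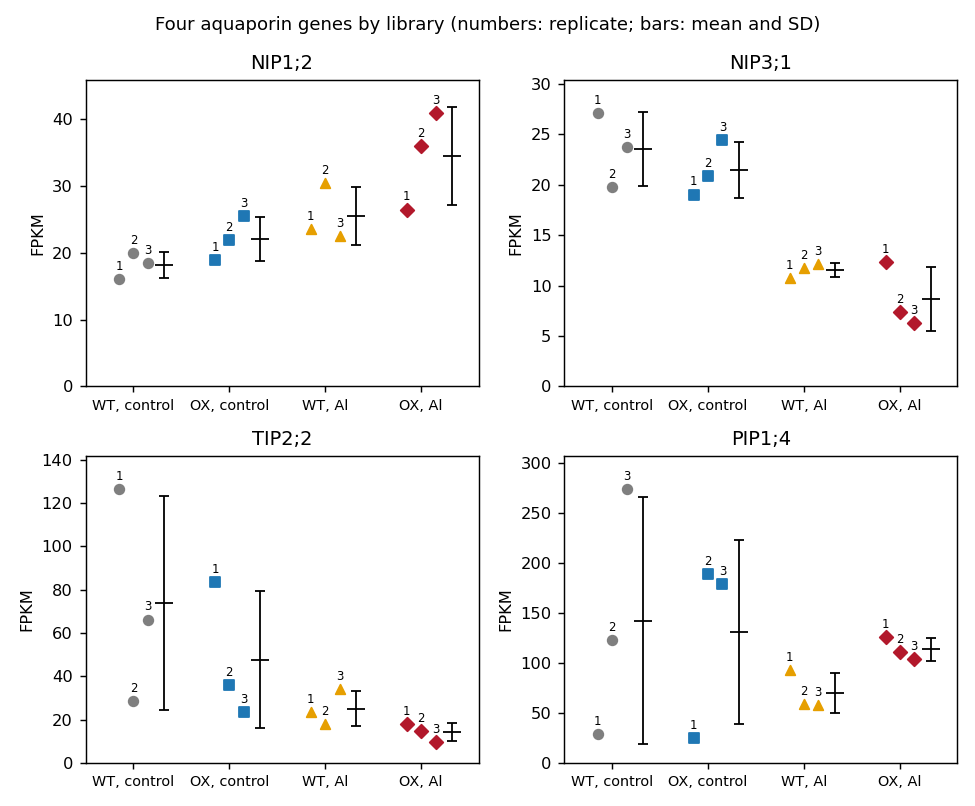
FPKM by library for NLM2, AT1G31885, DELTA-TIP2 and PIP1E, titled with their current names, with replicate numbers beside the points and bars for the mean and SD of the 3 libraries of each group. AT1G31885 separates control (19.0 to 27.1) from Al (6.27 to 12.3), NLM2 is highest in OX with Al, and the wide bars of DELTA-TIP2 and PIP1E in the controls come from replicates that lie far apart.

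NLM1, the neighbour of NLM2, had overlapping groups in both genotypes. It was at 17.1, 3.71 and 5.54 FPKM in the WT controls, 15.03, 5.58 and 6.44 FPKM in the OX controls, 16.2, 8.11 and 28.4 FPKM in WT with Al and 10.9, 6.49 and 14.5 FPKM in OX with Al. Control replicates 1 were the highest controls, and the change with Al was 1.07 in WT (SE 0.581, adjusted p = 0.495), the most positive of any member there, and 0.29 in OX (SE 0.581, adjusted p = 0.882). In WT it was 1.67 without control replicate 1, 0.64 without control replicate 2 and 0.65 without Al replicate 3. NLM1 was lowest in WT control replicate 2 and highest in WT Al replicate 3, a library with a high green-marker sum. WT Al replicate 2, with the highest green-marker sum of the series, held the lowest NLM1 value of WT with Al, 8.11 FPKM. A part of green tissue in these values was not tested.

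AT4G10380, the boric acid channel, was at 608, 641 and 759 FPKM in the WT controls and at 629, 441 and 508 FPKM in WT with Al. In OX it was at 632, 874 and 865 FPKM without Al and at 609, 617 and 518 FPKM with Al. The Al libraries lay below the controls in OX and overlapped them in WT. The change was -0.39 in the mean of both genotypes (SE 0.147, adjusted p = 0.170).

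Among the vacuolar channels, DELTA-TIP2 had the highest coefficient of variation of the 29 members tested. It was at 127, 28.8 and 66.2 FPKM in the WT controls and at 23.3, 17.9 and 34.0 FPKM in WT with Al, where the groups overlapped. The OX libraries were at 83.7, 35.8 and 23.5 FPKM without Al and at 18.1, 14.5 and 9.66 FPKM with Al, where they did not. It had the most negative change of the family in both genotypes, -1.35 in WT (SE 0.538, adjusted p = 0.336) and -1.57 in OX (SE 0.538, adjusted p = 0.208), and -1.46 in the mean (95% confidence interval -2.29 to -0.62, adjusted p = 0.0524). Its mean change passed the limit without WT control replicate 2 (-1.73, adjusted p = 0.0211) or OX control replicate 3 (-1.66, adjusted p = 0.0431), and was -0.95 (adjusted p = 0.0923) without both control replicates 1, which were its highest controls.

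GAMMA-TIP2 was at 1379, 542 and 964 FPKM in the WT controls, 622, 584 and 469.6 FPKM in the OX controls, 468, 535 and 699 FPKM in WT with Al and 471, 370.2 and 471 FPKM in OX with Al. WT control replicate 1 held the highest value of any aquaporin in the series, and the Al libraries overlapped the controls in both genotypes. Its change was -0.52 in the mean (SE 0.218, adjusted p = 0.233). Over the 22 alternatives it ran from -0.70 to -0.32, with adjusted p from 0.0553 to 0.441. GAMMA-TIP1 was at 681, 393 and 549 FPKM in the WT controls, 447, 444 and 346 FPKM in the OX controls, 589, 370.3 and 501 FPKM in WT with Al and 382, 317 and 255 FPKM in OX with Al, and its change of -0.26 (SE 0.177) was within the spread between libraries.

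DELTA-TIP3 was at 39.3, 5.81 and 21.2 FPKM in the WT controls and at 9.12, 7.43 and 15.4 FPKM in WT with Al. In OX it was at 19.5, 7.83 and 9.03 FPKM without Al and at 6.08, 7.32 and 5.80 FPKM with Al. As for DELTA-TIP2, the groups were apart in OX and overlapped in WT, and control replicates 1 were the highest controls. The mean change was -0.74 (adjusted p = 0.361), a value that includes these high controls and is not given without them.

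DELTA-TIP1, whose exons overlap genes on the opposite strand, differed in the other direction from DELTA-TIP2. It was at 38.9, 12.1 and 19.1 FPKM in the WT controls and at 16.9, 43.3 and 32.5 FPKM in WT with Al. The OX libraries were at 11.1, 6.97 and 8.37 FPKM without Al and at 15.1, 19.7 and 18.1 FPKM with Al. The 3 highest WT libraries, control replicate 1 and Al replicates 2 and 3, were those with a high green-marker sum. In OX the Al libraries lay above all controls, and so did their green-marker sums, at 67.5, 94.1 and 61.3 FPKM with Al against 55.2, 41.8 and 42.5 FPKM without, with OX Al replicate 2 the highest OX library for both. The part of green tissue in DELTA-TIP1 was not tested in either genotype. The change was 0.72 in the mean (SE 0.283, adjusted p = 0.201), 0.98 in OX (adjusted p = 0.305) and 0.46 in WT (adjusted p = 0.697). The mean change passed the adjusted p without WT control replicate 1 (0.94, adjusted p = 0.0479) and without both control replicates 1 (1.02, adjusted p = 0.0455). It passed under no other of the 22 alternatives, over which it ran from 0.53 to 1.02 with adjusted p up to 0.365.

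Of the plasma membrane water channels, PIP2B was at 849, 438 and 654 FPKM in the WT controls and at 397, 341 and 394 FPKM in WT with Al. In OX it was at 536, 548 and 339 FPKM without Al and at 385, 298 and 251 FPKM with Al. PIP2A was at 586, 327 and 416 FPKM in the WT controls, 350.0, 421 and 299.5 FPKM in the OX controls, 298, 311 and 287 FPKM in WT with Al and 329, 258 and 208 FPKM in OX with Al. For both genes the Al libraries lay below all controls in WT and overlapped them in OX, and the mean changes were -0.66 (SE 0.192, adjusted p = 0.0785) and -0.48 (SE 0.164, adjusted p = 0.132). Without WT control replicate 2 the change of PIP2B passed the adjusted p (-0.79, adjusted p = 0.0385), which it did under 1 of 22 alternatives alone. Over these it ran from -0.79 to -0.50, with adjusted p up to 0.205. A part of the fragments of PIP2B cannot be told apart from those of RD28.

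PIP1B showed no such shift. It was at 645, 380.3 and 435 FPKM in the WT controls, 389, 513 and 325 FPKM in the OX controls, 449, 467 and 378 FPKM in WT with Al and 529, 508 and 424 FPKM in OX with Al, and its mean change of 0.06 (SE 0.164, 95% confidence interval -0.30 to 0.42) took either sign when single libraries were left out. PIP1A was at 448, 246 and 377 FPKM in the WT controls, 306, 330.0 and 199.6 FPKM in the OX controls, 241, 205 and 251 FPKM in WT with Al and 219.6, 162 and 156 FPKM in OX with Al, overlapping in both genotypes.

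PIP1A and PIP1D had mean changes of -0.60 and -0.65 (adjusted p = 0.0835 and 0.0846), PIP3A and PIP3B of 0.35 and 0.49 (adjusted p = 0.262 and 0.142), and PIP1C and RD28 of 0.25 and 0.22. PIP3A was at 257, 140.3 and 169 FPKM in the WT controls, 137, 166 and 173 FPKM in the OX controls, 241, 184 and 254 FPKM in WT with Al and 183, 204 and 240.2 FPKM in OX with Al. It and PIP1C lay above their controls in all 3 OX Al libraries and overlapped them in WT. PIP3B, a scarce water channel, was at 7.34, 7.07 and 5.75 FPKM in the OX controls and at 8.84, 10.4 and 12.8 FPKM in OX with Al, and its change there was 0.62 (adjusted p = 0.270). RD28 was at 75.9, 22.3 and 27.9 FPKM in the WT controls, 27.4, 32.3 and 20.8 FPKM in the OX controls, 46.7, 45.8 and 41.5 FPKM in WT with Al and 30.6, 30.7 and 26.7 FPKM in OX with Al, with a single high control, replicate 1 of WT. PIP2D stayed between 1.89 and 4.12 FPKM. The PIPs thus had members on both sides of 0, 7 lower and 6 higher in the mean of both genotypes.

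PIP2F, with a mean of 23.9 FPKM, and PIP2E, with a mean of 4.40 FPKM, had the most negative and the most positive mean change among the PIPs. PIP2F was at 71.1, 16.9 and 52.5 FPKM in the WT controls, 19.7, 21.4 and 16.5 FPKM in the OX controls, 15.3, 13.5 and 29.3 FPKM in WT with Al and 10.6, 7.53 and 12.9 FPKM in OX with Al. PIP2E was at 5.68, 3.16 and 1.79 FPKM in the WT controls, 3.02, 1.38 and 1.38 FPKM in the OX controls, 1.14, 10.4 and 8.45 FPKM in WT with Al and 6.93, 6.36 and 3.16 FPKM in OX with Al. The groups did not overlap in OX for either gene and overlapped in WT for both. The mean changes were -0.999 (SE 0.3201, adjusted p = 0.109) for PIP2F and 0.92 (SE 0.455, adjusted p = 0.319) for PIP2E. They became -1.30 (adjusted p = 0.0108) without WT control replicate 2 and 1.35 (adjusted p = 0.0411) without WT Al replicate 1. Each gene passed the adjusted p under 1 of 22 alternatives alone. Over these, PIP2F ran from -1.30 to -0.78 (adjusted p up to 0.256) and PIP2E from 0.67 to 1.35 (adjusted p up to 0.506). The lowest of the WT Al libraries for PIP2E was the one with the low green-marker sum, and the part of green tissue in this spread was not tested.

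PIP1E was marked by the control replicates 1. It was at 29.2, 123 and 274 FPKM in the WT controls, 25.0, 189 and 179 FPKM in the OX controls, 92.8, 58.6 and 58.0 FPKM in WT with Al and 126, 110.4 and 104 FPKM in OX with Al. Control replicate 1 was the lowest library of the series in each genotype, and the other 4 controls included the 3 highest. Its mean change with Al was -0.15 (SE 0.577, adjusted p = 0.924), and -1.06 (SE 0.220, adjusted p = 0.0283) without both control replicates 1. The sign became positive without WT control replicate 3 (0.22), OX control replicate 2 (0.10) or OX control replicate 3 (0.08).

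SIP1A was at 75.0 to 87.9 FPKM in the WT controls and 76.2 to 87.0 FPKM in WT with Al, and at 84.0 to 94.2 FPKM and 86.4 to 92.3 FPKM in OX. Its mean change was 0.01 (SE 0.0687, 95% confidence interval -0.14 to 0.16), the narrowest interval of the family. AT3G56950, also in the endoplasmic reticulum, was at 19.1 to 20.5 FPKM in the WT controls, 15.6 to 21.0 FPKM in WT with Al, 19.5 to 21.2 FPKM in the OX controls and 14.6 to 17.2 FPKM in OX with Al, with a mean change of -0.29 (SE 0.0825, adjusted p = 0.0770).

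Counted over the family, Al called 0 of the 29 members in WT, where 0.332% of all genes tested were called, and 1 in OX, where 0.862% were. In the mean of both genotypes 1 member was called, AT1G31885, against 1.65% of all genes. With limma's unadjusted p under 0.05, 9 members differed in WT (1 higher, 8 lower), 7 in OX (3 higher, 4 lower) and 14 in the mean (4 higher, 10 lower). These were 31% of the members against 12.5% of all genes in WT, and 24.1% against 13.7% in OX. In the mean they were 48.3% against 18.3%. Analysed with voom on fragment numbers, the calls were again 0, 1 and 1. The share called in the mean, 1 of 29, is a single gene and is no more than a description beside 1.65%.

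Groups without overlap were 4 of 29 in WT (1 higher, 3 lower), where 16.4% of all genes showed this, and 13 in OX (6 higher, 7 lower), where 20.6% did. The 44.8% in OX against 13.8% in WT were not compared by a test. Both genotypes without overlap and in the same direction were found for 2 members, NLM2 above and AT1G31885 below, which is 6.90% of the members, and for 5.01% of all genes. The median change over the members was -0.15 in WT, -0.08 in OX and -0.15 in the mean, against 0.01, -0.01 and 0.00 over all genes, and by subfamily the mean had medians of -0.15 for PIPs, -0.26 for TIPs, 0.11 for NIPs and 0.01 for SIPs.

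The summed level of the 10 root markers was 374, 235 and 238 FPKM in the WT controls, 283, 325 and 267 FPKM in the OX controls, 277, 207 and 280.2 FPKM in WT with Al and 237, 226 and 203 FPKM in OX with Al. It was highest in WT control replicate 1 and lowest in OX Al replicate 3, the same libraries as for the aquaporin sum. None of these markers was called. With Al in OX, 8 of 10 were lower (median -0.31). Groups did not overlap for 4, all of them lower, which is 40% against 20.6% of all genes. In WT 3 of 10 were lower (median 0.19), and 1 marker, higher with Al, had no overlap, 10% against 16.4% of all genes. The part of these markers in the aquaporin values was not tested.

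Counts at the unadjusted p moved with the control replicates 1. Without them, 4 members were higher and 2 lower in WT, 4 higher and 5 lower in OX, and 7 higher and 11 lower in the mean. The share of all genes at this p was not computed without them. Called members in the mean without them were 3, AT1G31885, DELTA-TIP1 and PIP1E. The replicate number used as a block gave 2, AT1G31885 and DELTA-TIP2 (adjusted p = 0.0308). The shares of all genes called under these settings are not given here.

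**Figure D4:**
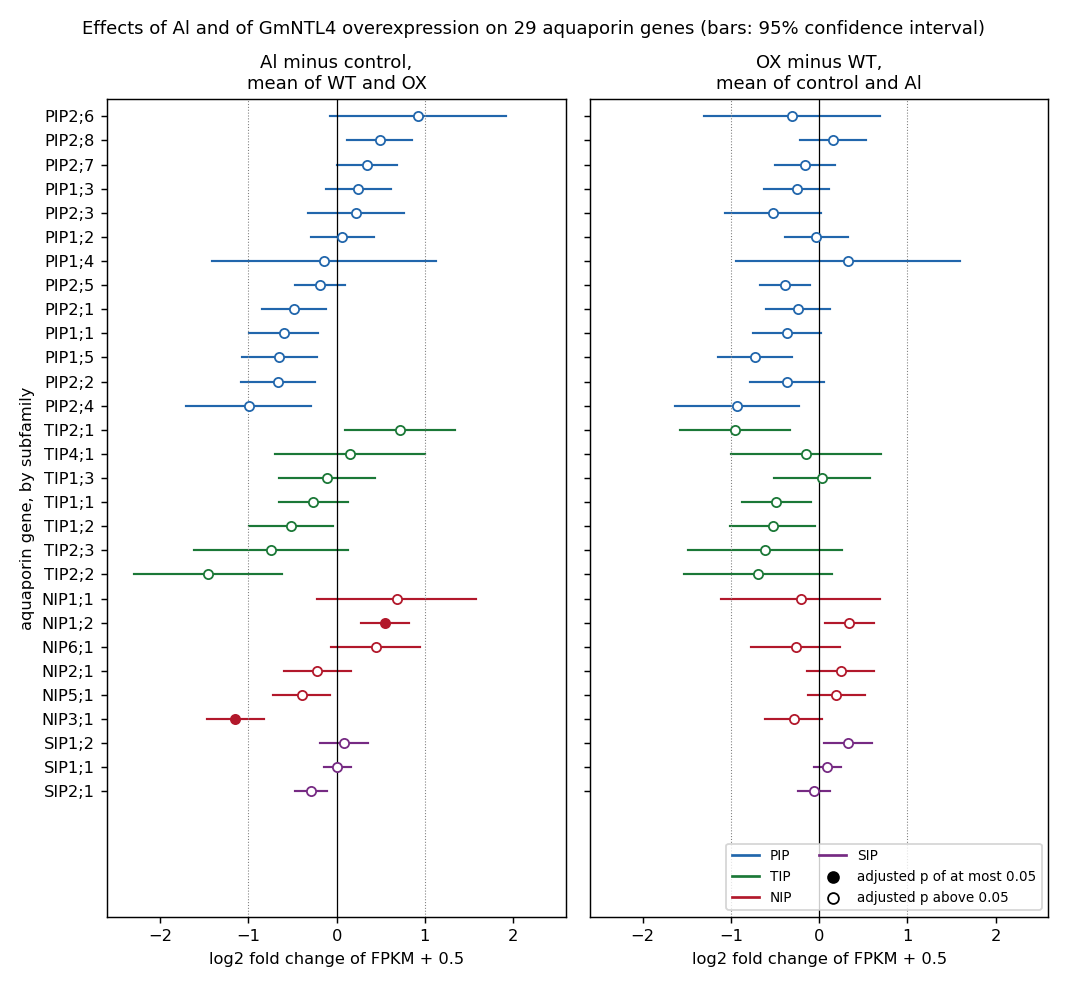
Change on the log2(FPKM + 0.5) scale with its 95% confidence interval for the 29 aquaporin genes, Al minus control averaged over genotypes (left) and OX minus WT averaged over treatments (right), with filled points for an adjusted p of at most 0.05. Only AT1G31885 (-1.15) and NLM2 (0.55) are filled on the left and none on the right, where 21 of the 29 points lie below 0.

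For the effect of *GmNTL4*, OX was compared with WT in each treatment and over both. No aquaporin was called. More members were lower than higher in OX, with DELTA-TIP1, PIP2F and PIP1D at the low end and NLM2 among the higher ones.

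NLM2 was higher in OX than in WT by 0.42 under Al (SE 0.176, 95% confidence interval 0.03 to 0.80, adjusted p = 0.437) and by 0.27 without Al (SE 0.176, 95% confidence interval -0.12 to 0.66). Averaged over treatments the difference was 0.34 (SE 0.125, 95% confidence interval 0.07 to 0.62, adjusted p = 0.452), the most positive of the members tested at an unadjusted p under 0.05. As the values given for it show, 1 OX Al library lay within the WT Al range and 2 above it. The response to Al differed between OX and WT by 0.15 (SE 0.249, 95% confidence interval -0.40 to 0.70), an interval that holds both 0 and differences larger than the response itself.

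DELTA-TIP1 was lower in all 3 OX controls (6.97 to 11.1 FPKM) than in all 3 WT controls (12.1 to 38.9 FPKM), a difference of -1.22 (SE 0.401, 95% confidence interval -2.10 to -0.34, adjusted p = 0.774). Under Al it was -0.70 (SE 0.401, adjusted p = 0.546) and over both treatments -0.96 (SE 0.283, adjusted p = 0.352), and without both control replicates 1 these were -0.95 in the controls and -0.82 over both. Without WT control replicate 1 alone the difference in the controls was -0.77. The green-marker sum was 40.6 to 307 FPKM in the WT controls and 41.8 to 55.2 FPKM in the OX controls, 29.2 to 559 FPKM in WT with Al and 61.3 to 94.1 FPKM in OX with Al. All 9 green markers tested were lower in OX in both treatments with none called, and their part in the lower DELTA-TIP1 was not tested.

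PIP2F had the most negative difference under Al, -0.82 (SE 0.453, adjusted p = 0.533), with OX libraries at 7.53 to 12.9 FPKM below the WT range of 13.5 to 29.3 FPKM. It was -0.49 (adjusted p = 0.824) without WT Al replicate 3. PIP1D was at 97.0, 83.1 and 125 FPKM in WT with Al and at 71.6, 60.7 and 66.9 FPKM in OX with Al, again without overlap, and at 232, 106 and 210.3 FPKM against 92.8, 119 and 77.9 FPKM in the controls, where the groups overlapped. Its difference over both treatments was -0.73 (SE 0.193, 95% confidence interval -1.15 to -0.30, adjusted p = 0.292). PIP1E had the most positive difference under Al, 0.73 (SE 0.816, adjusted p = 0.771), with OX at 104 to 126 FPKM above WT at 58.0 to 92.8 FPKM, and a standard error that carries the spread of the control libraries.

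The vacuolar channels GAMMA-TIP2 and GAMMA-TIP1 were lower in OX by 0.53 and 0.49 over both treatments (adjusted p = 0.492 and 0.452), with every group overlapping its counterpart. PIP2A and PIP2B had differences of -0.24 and -0.36 and PIP1B of -0.03, which turned to 0.09 without both control replicates 1. AT4G10380 had 0.19 (SE 0.147) and NLM1 -0.21 (SE 0.411). The low-level SIP1B had the most positive difference in the controls, 0.31 (SE 0.178), with OX at 2.66, 3.06 and 3.07 FPKM above WT at 2.41, 2.21 and 2.18 FPKM, and AT1G31885, the gene that fell with Al, differed by -0.13 in the controls (SE 0.209) and by -0.45 under Al (SE 0.209, adjusted p = 0.471).

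No member was called in OX against WT under Al, where 0.0385% of all genes were, in the controls, where 0.0433% were, over both treatments, where 0.106% were, or for the difference between the Al responses of OX and WT, where 0% were. With limma's unadjusted p under 0.05 there were 2 members under Al (1 higher, NLM2, and 1 lower, GAMMA-TIP1), 4 in the controls (all lower), 8 over both treatments (2 higher, 6 lower) and 0 for the difference between the Al responses. Under Al these were 6.9% of the members against 10.8% of all genes, and in the controls 13.8% against 4.71%. The 8 were 27.6% of the members, against 9.68% of all genes. Without both control replicates 1 the counts at this p were 2 higher and 6 lower under Al and 1 lower in the controls. Over both treatments they stayed at 2 higher and 6 lower, and 1 member was below 0 for the difference between the Al responses. When only the groups compared were fitted, they were 1 higher and 7 lower under Al and 2 lower in the controls. The shares of all genes at this p were not computed under these alternatives. Analysed with voom, no member was called in these 4 comparisons either.

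The 8 members over both treatments were NLM2 and SIP1B, both higher, and DELTA-TIP1, PIP2F, PIP1D, GAMMA-TIP2, GAMMA-TIP1 and PIP2D, all lower. Groups did not overlap for 7 of 29 members under Al (2 higher, 5 lower), against 19.5% of all genes, for 3 in the controls (1 higher, 2 lower), against 7.85%, and for 0 in both treatments in the same direction, against 1.13%. The median difference over the members was -0.21 under Al, -0.28 in the controls and -0.26 over both, against -0.03, -0.01 and -0.02 over all genes, and 21 of 29 members were lower over both treatments. Of the PIPs and TIPs, 11 of 13 and 6 of 7 were lower, with medians of -0.31 and -0.53, and 3 of 6 NIPs and 1 of 3 SIPs were lower. WT control replicate 1, the library highest in 13 members, belongs to the group compared against. Without both control replicates 1 the median over both treatments was -0.19 with 20 of 29 members lower. In the controls alone the median was then -0.07, with 17 members lower and 12 higher.

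The differences between the Al responses of OX and WT ran from -0.79 for NLM1 (SE 0.822) to 0.80 for PIP1E (SE 1.15), with 18 members above 0 and 11 below. The value of PIP1E was -0.15 without OX control replicate 1. With 3 libraries per group, the 95% confidence intervals were -2.59 to 1.02 for NLM1 and -1.74 to 3.33 for PIP1E.

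Genes that work beside the aquaporins were read in the same fits. Of 13 Al tolerance genes listed, 12 were tested and none was called. In the mean effect of Al, *GDH1*, a glutamate dehydrogenase, was higher by 0.85 (adjusted p = 0.0416) and *STAR1*, a subunit of an ABC transporter, was at -0.66 (adjusted p = 0.00741), both under the size limit. *ALMT1*, the malate channel that supplies the ligand for NLM2, was at 1.87 (SE 0.539, adjusted p = 0.0767). That value includes the control replicates 1, at 15.6 and 30.02 FPKM against 94.98 to 165 FPKM in the other controls, and is not given without them. With the unadjusted p under 0.05, 5 of the 12 were higher and 3 lower, 66.7% against 18.3% of all genes, with a median of 0.33. NLM2 and *ALMT1* were thus both higher with Al in both genotypes, and within each genotype both were lowest in control replicate 1.

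Of the listed boron exporters, 5 of 7 were tested and none was called. With Al, *BOR4* was higher by 0.47 at an unadjusted limma p of 0.0436, and in OX *BOR1* and *BOR5* were at -0.62 and -0.92 (adjusted p = 0.304 and 0.285). *BOR2* was low in both control replicates 1, at 47.4 and 94.0 FPKM against 196 to 297 FPKM in the other controls, as PIP1E was. Of 10 genes for PIP trafficking and phosphorylation none was called, with medians of 0.09 for Al and 0.01 for OX, 1 higher with Al (*SYP61*) and 1 lower in OX (*SIRK1*) at the unadjusted p. Each was 10% of the list, against 18.3% of all genes for Al and 9.68% for OX. Of the 9 green markers tested, all 9 were higher with Al (median 0.63) and all 9 were lower in OX (median -1.11), with none called, and at the levels given their part in the aquaporin values was not tested. *ALMT1* was at 314, 209 and 214 FPKM in WT with Al and at 209, 385 and 320 FPKM in OX with Al, where the ranges overlapped as those of NLM2 did.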

How the data were processed

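Root RNA of 12 samples was sequenced as paired reads of 150 bases. The deposited FPKM values were made by the authors, who aligned reads with HISAT2 to TAIR10 and counted them with HTSeq 0.6.0, per the study's methods and the submitters' processing notes, before correcting for gene length and depth. Fragment numbers were read back from the FPKM and were whole (tolerance 0.05) for 100% of 25872 genes, with 16162941 to 17136217 fragments per library.

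log2(FPKM + 0.5) was computed here from the deposited FPKM and fitted with limma 3.58.1 (R 4.3.3) with a variance trend, on all 12 libraries with a mean per group. Genes reaching 0.5 FPKM in at least 3 libraries were tested, p-values were adjusted over all 20773 by Benjamini-Hochberg, and the scripts were tested on simulated data. Every p in the text is two-sided and comes from this fit or a named alternative. Calls needed both an adjusted p within 0.05 and a change of 1 or more on that scale. Members named in full were those called, those with the most positive and most negative change in each comparison, NIP1;2 and NIP1;1, and the members of highest mean level; further members were added after their values were seen. The members and lists were chosen with earlier results of these data known. The sources used here do not say that replicates are separate cultures, so p-values measure only the spread between these samples. Sequences are from the RefSeq assembly TAIR10.1, in which 25579 gene IDs matched. Figures were drawn with matplotlib 3.10.9 and use current gene names, in which GAMMA-TIP3, PIP2D, SIP1A and SIP1B are TIP1;3, PIP2;5, SIP1;1 and SIP1;2.

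Alternatives were pseudocounts of 0.1 and 1, no filter, median-ratio scaling, a filter at a mean FPKM of 1, no trend, quantile normalization, voom on fragments, a replicate block, the compared groups alone, the adjusted p alone, no replicate 1 in either control group, and each library left out.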

Additional observations from a re-analysis of the deposited data

How the results depend on the processing

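For single genes the adjusted p alone decides here whether a result held. The fall of NIP3;1 with Al in the mean of both genotypes held under all 22 alternatives. The number of aquaporins called in that comparison was 1, became 2 with a replicate block (TIP2;2 added, adjusted p = 0.0308) and 2 with the adjusted p alone, and was 3 without replicate 1 of both control groups and 1 to 3 with single libraries left out (3 without WT control replicate 2). In OX alone it was 1, became 0 when only the groups compared were fitted, and was 0 to 1 with single libraries left out. NIP1;2 in the mean was 0.45 without replicate 1 of both control groups and 0.48 to 0.63 with single libraries left out, and in OX alone 0.49 to 0.80. The counts were 0 under every alternative run for Al in WT, for the interaction and for OX against WT in each treatment and in the mean. The sign changed for PIP1;2 in OX against WT (0.0908 without replicate 1 of both control groups, -0.12 to 0.0791 with single libraries left out) and with Al (-0.0156 to 0.17), for PIP1;4 with Al (-0.62 to 0.22) and in the interaction (-0.15 to 1.67), and for NIP1;1 in OX against WT (-0.43 to 0.0917). Results that were not called but moved by over 1.5 times with single libraries left out included TIP2;2 with Al in WT (-1.90 to -0.84), NIP1;1 with Al in WT (0.64 to 1.67) and in the interaction (-1.39 to -0.36), NIP1;2 in the interaction (0.01 to 0.32) and PIP2;4 in OX against WT under Al (-1.03 to -0.49). Replicate numbers were not used to pair the libraries in the main fit. Over 18 same-numbered pairs the correlation of deviations ran from -0.247 to 0.286 and 8 exceeded 0.1. Differently numbered pairs were not computed, so these values cannot decide whether the numbers pair the libraries. Depth limits TIP1;3, NIP2;1 and NIP6;1, which were near the filter.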

Other observations

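NIP7;1, which is below the filter, had 1, 2 and 2 fragments in the WT controls, 1, 3 and 0 in the OX controls, 6, 4 and 11 in WT with Al and 1, 13 and 12 in OX with Al. Fitted by limma without the filter, its change with Al in the mean of both genotypes was 0.50 (SE 0.157, adjusted p = 0.128). At so few fragments these values are limited by counting.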
